A study of Rattus norvegicus with 40 samples.

Results

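The step from 0.1 to 1 mg/kg of GW7647 was followed in rat liver by comparing the 10 arrays of rats given 1 mg/kg with the 10 arrays of rats given 0.1 mg/kg, which are 20 of the study's 40 arrays, chosen by the dose in their labels. The animals were adult male Sprague Dawley SD:CD rats in 4 groups of 10, gavaged daily for 4 days. One group received vehicle, and the others GW7647 at a dose of 0.1 mg/kg, of 1 mg/kg and of 10 mg/kg, and liver RNA was taken 24 h after the last dose. All 4 groups were treated alike apart from the dose, and 1 agonist was tested. Each rat gave 1 array, and 13438 genes were read by 1 probe set each. The labels do not say what the vehicle was. The comparison asks which responses begin between these doses, so the vehicle and 10 mg/kg groups are used only to place the step within the dose course.

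GW7647 activates PPAR-alpha, a nuclear receptor of the liver that is switched on by fatty acids. It acts as a pair with the retinoid X receptor and binds DNA at repeats of a short motif near genes for fatty acid uptake, for oxidation in mitochondria and peroxisomes and for omega-hydroxylation. In rodents, agonists of this receptor also enlarge the peroxisome population and bring hepatocytes into the cell cycle.

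The deposited log2 values sat higher at 1 mg/kg than at 0.1 mg/kg as a whole. The median probe set was 2.42 to 2.52 on the 0.1 mg/kg arrays and 2.57 to 2.63 on the 1 mg/kg arrays, without overlap. The median step over all genes was 0.20 on the deposited log2 scale, and it was -0.01 once all 40 arrays had been quantile normalized. Exactly equal values were shared by 0.0278% of probe sets between pairs of 0.1 mg/kg arrays, by 0.0304% between pairs of 1 mg/kg arrays and by 0.00119% across these groups. Vehicle and 0.1 mg/kg arrays shared 0.0263%, about as much as arrays within a group, so a break in these shares lies at the step described here and none was seen before it. If it marks a change of normalization run, run and dose cannot be told apart in this step, and neither scale removes an offset of a single probe set. Every step was therefore tested on both scales, and the words rose and fell are kept for genes that passed limma's moderated test on both, in the same direction (Benjamini-Hochberg adjusted p under 0.05, all genes tested). Levels, differences and folds are on the deposited log2 scale unless stated otherwise. On this scale 0.1 mg/kg arrays 8 and 9 had a low upper quartile, and added poly-A control RNAs read low on arrays 1 to 4 of the 1 mg/kg group and high on arrays 5 to 10, over a range of 5.25 to 7.39. Signs of RNA quality also differed: arrays 7 and 10 of the 1 mg/kg group had a 3′ minus 5′ difference of 1.01 and 1.53 for the GAPDH controls and of 3.95 and 4.42 for the actin controls, against at most 0.61 and 3.40 at 0.1 mg/kg. The group means of the GAPDH difference were 0.64 at 1 mg/kg and 0.42 at 0.1 mg/kg. The part of these values in the results was not tested, and the subset with arrays 1 to 4 of the 1 mg/kg group holds neither array. Hepatocyte markers, which check the labelled tissue, had a list mean of 12.36 on the log2 scale in both groups, with an SD over 10 arrays of 0.06 at the lower dose and 0.07 at the higher.

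**Figure D1:**
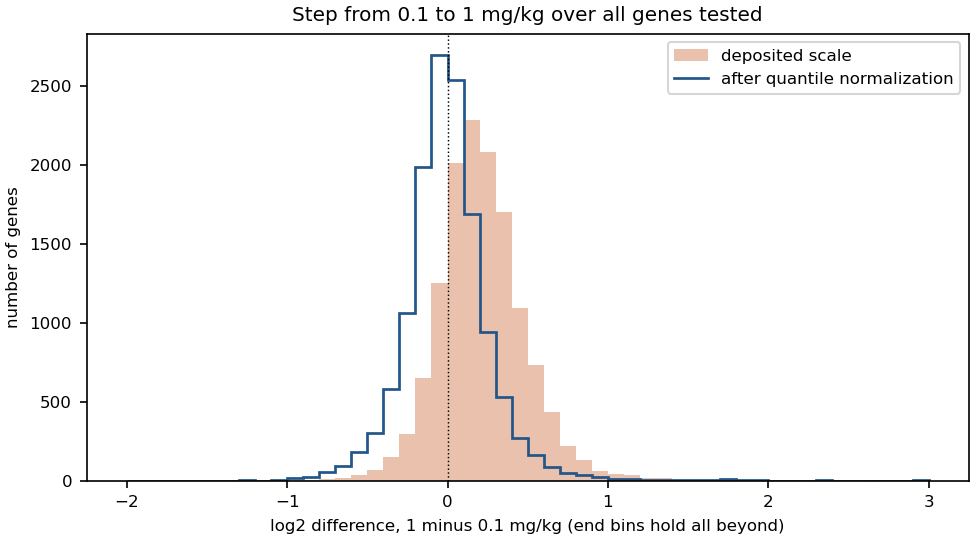
Number of genes (vertical axis) by log2 difference between 1 and 0.1 mg/kg (horizontal axis, bins of 0.1) on the deposited scale (filled) and after quantile normalization (line), over 13438 genes. The deposited differences are centred at 0.20 and the quantile-normalized ones at -0.01, and on both scales a tail of large rises extends further than the tail of falls.

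Between 0.1 and 1 mg/kg, 1406 of 13438 genes rose (10.5%) and 397 fell (2.95%) on both scales. The deposited scale alone called 6107 genes higher (45.4%) and 397 lower (2.95%), which makes 93.9% of its calls rises, whereas quantile normalization called 1406 higher (10.5%) and 1534 lower (11.4%), or 47.8% rises. Quantile normalization thus sets the count of rises and the deposited scale the count of falls. Most changes were small. Only 272 of the rises and 37 of the falls reached 1.5-fold on both scales, 85 and 5 reached 2-fold, and 13 and 1 reached 4-fold. On both scales every 1 mg/kg array lay above every 0.1 mg/kg array for 142 genes (1.06%) and below it for 10 (0.0744%). The deposited scale alone gave 773 (5.75%) and 10, and quantile normalization 142 and 89 (0.662%). Of the 1406 rises 601 had a group mean of log2 5 or more, and 390 had none above log2 3. A test against a change of 1.2-fold left 190 rises and 24 falls, a filter for genes at log2 5 or more left 630 and 95, and keeping just the first 4 arrays at 1 mg/kg left 871 and 251. Because RNA came from whole liver, fewer cells of a type and less RNA per cell cannot be told apart in any of these changes.

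Few genes had passed before this step. Between vehicle and 0.1 mg/kg, 11 genes rose (0.0819%) and 1 fell (0.00744%) by the same rule, and all 11 rose again in the step. To find responses that were larger in this step than before it, the step was tested against the change from vehicle to 0.1 mg/kg within 1 model. Genes that rose in the step by more than in the one before, on both scales, numbered 257 (1.91%), and those that fell by more numbered 81 (0.603%). They are called onset genes here, a name that does not mean that they were unchanged at 0.1 mg/kg. The other rises and falls were not shown to differ from the change before them. Of the 257, 249 had not passed at 0.1 mg/kg and 8 had already risen there. Of the same 257, 214 were also higher at 1 mg/kg than in vehicle, and 52 belong to the gene lists described below. This test uses the 0.1 mg/kg arrays on both sides, so a low group mean there enlarges both terms of a rise and a high one both terms of a fall. After quantile normalization the change from vehicle to 0.1 mg/kg had the opposite sign in 190 of the 257 and 76 of the 81, and 54 of the 81 were also lower at 1 mg/kg than in vehicle. A change of normalization run at this step would enter the contrast in 1 of its terms only. Leaving out 0.1 mg/kg arrays 8 and 9 left 147 rising onset genes, and leaving out array 9 alone left 144. Using only arrays 5 to 10 at 1 mg/kg left 156, and the filter at log2 5 left 87 rising and 12 falling.

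Acot1, a cytosolic thioesterase that splits acyl-CoA into fatty acid and coenzyme A, showed the largest onset. Its level was 1.57, 1.79 and 2.10 (lowest, median and highest of 10 arrays) at 0.1 mg/kg and 10.34, 10.76 and 11.08 at 1 mg/kg. It was therefore in the dimmest range of the arrays in every rat at the lower dose and bright in every rat at the higher. The step was 8.89 on the log2 scale (SE 0.08, 474-fold, adjusted p = 1.53e-46), against 0.17 from vehicle to 0.1 mg/kg. Because the starting level lies below the arrays' median probe set, the size of this fold depends on the background correction. Acot2, its mitochondrial counterpart, starts 24.4 kb from Acot1 on chromosome 6 of the GRCr8 assembly. It went from 7.13, 7.81 and 8.11 to 10.22, 10.64 and 10.83, a 7.06-fold step without overlap, and its other probe sets gave 2.49 and 2.72. Acot2 had already risen by 0.73 at 0.1 mg/kg. Cross-reading between the probe sets of such similar genes was not examined.

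Hdc, histidine decarboxylase, which forms histamine, showed the next largest onset contrast among bright genes. Its level was 3.66, 4.80 and 5.69 at 0.1 mg/kg and 8.40, 8.92 and 9.33 at 1 mg/kg. The groups lay far apart, and the step was 17.9-fold (4.16, SE 0.19, adjusted p = 1.05e-20). Crat, carnitine acetyltransferase, which exchanges acetyl groups between coenzyme A and carnitine, went from 4.83, 5.33 and 5.87 to 7.63, 8.17 and 8.55. Again no array of one dose reached the range of the other, and the step was 7.45-fold (2.90, SE 0.12, adjusted p = 6.7e-22). Spmip11, a sperm microtubule inner protein by name, went from 2.17, 2.55 and 2.95 to 4.49, 5.89 and 6.81, a 9.28-fold step that began near the arrays' median probe set. Other onset genes outside the cell cycle were Vnn1, a pantetheinase that frees the precursor of coenzyme A (6.35-fold, with 0.64 at 0.1 mg/kg that did not pass), and Hspb1, a small heat shock protein (3.75-fold).

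**Figure D2:**
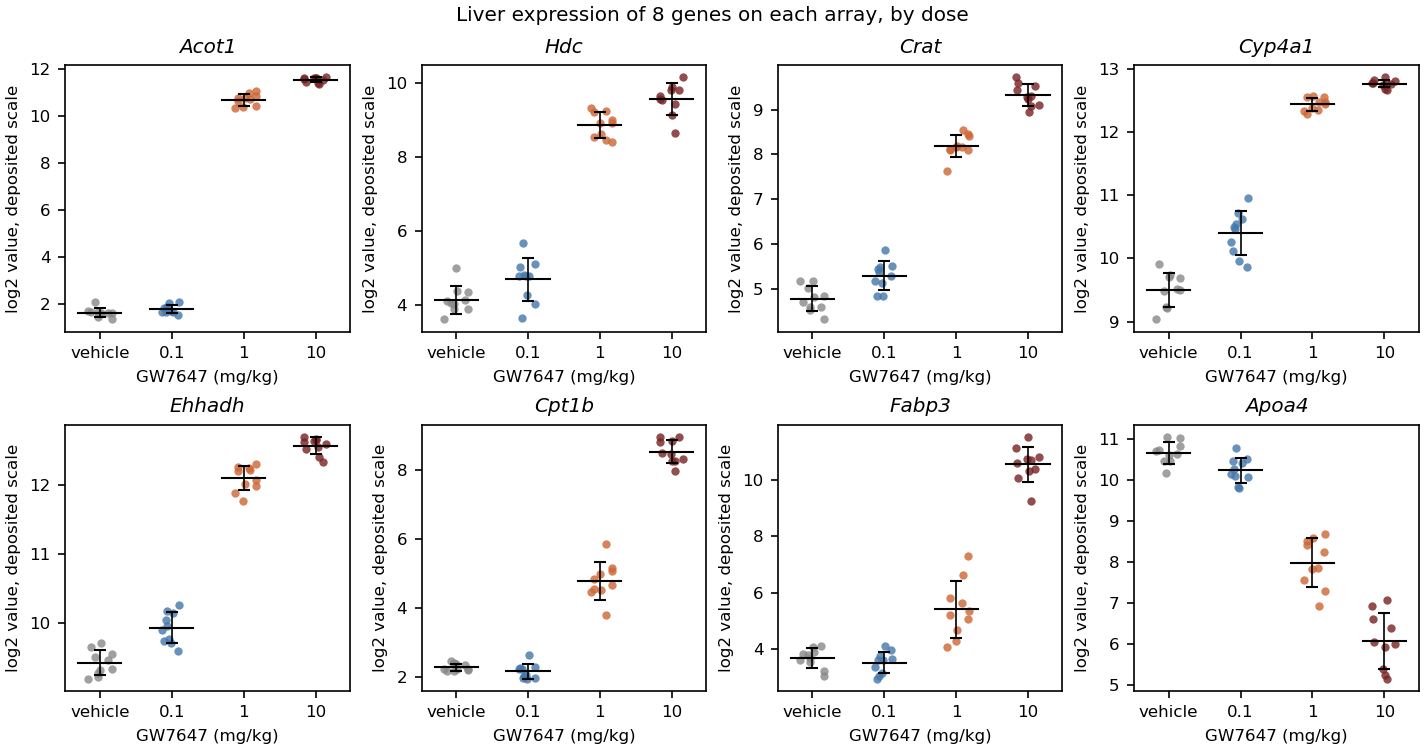
Deposited log2 value (vertical axes) of 8 genes on each array, by GW7647 dose in mg/kg (horizontal axes), with 1 point per rat and the mean and SD of 10 arrays as lines. For Acot1, Hdc, Crat, Cyp4a1, Ehhadh and Cpt1b all 1 mg/kg points lie above all 0.1 mg/kg points. For Fabp3 they overlap, and for Apoa4 all lie below.

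Aig1, whose enzyme cleaves fatty acids esterified to hydroxy fatty acids, rose 7.95-fold in the step, from 4.99, 6.02 and 6.45 to 8.47, 8.93 and 9.30, although it had already risen by 1.49 at the lower dose. A dimmer probe set of Aig1 gave a step of 0.16. Spink1, a secreted protease inhibitor, rose 4.47-fold, from 3.37, 5.37 and 7.27 to 5.73, 7.73 and 8.86. Its values were spread widely in both groups and overlapped, and its step did not pass the onset test. Its other probe sets disagreed, with 2.12 and 0.62, the latter 0.30 after quantile normalization.

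Promoters show where the receptor could bind near the start of a gene. RefSeq windows of the GRCr8 assembly, from 250 bases before to 50 after each start, were matched for 217 of the 257 rising onset genes, and were searched on both strands for a repeat of AGGTCA with any base between the copies, allowing up to 2 mismatches. It was found in 11 of the 217 (5.07%), in 30 of 1190 rising genes (2.52%), in 328 of 11089 genes tested (2.96%) and in 1020 of 27457 promoters of the table (3.71%). An exact copy was in 0 of the 1190. A match is a description of letters, not a binding site, and this window leaves out distant elements. The promoters of Acot8, with 1 mismatch, and of Crat, with 2, are shown for their matches, which are in capitals.
Acot8 promoter, chr3:173962139-173962438 (- strand): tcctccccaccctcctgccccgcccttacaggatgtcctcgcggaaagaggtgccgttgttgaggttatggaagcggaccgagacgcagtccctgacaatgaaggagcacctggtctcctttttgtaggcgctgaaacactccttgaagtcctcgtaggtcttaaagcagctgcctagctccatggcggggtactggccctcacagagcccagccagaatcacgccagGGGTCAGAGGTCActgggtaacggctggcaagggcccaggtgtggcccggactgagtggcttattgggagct
Crat promoter, chr3:34087050-34087349 (- strand): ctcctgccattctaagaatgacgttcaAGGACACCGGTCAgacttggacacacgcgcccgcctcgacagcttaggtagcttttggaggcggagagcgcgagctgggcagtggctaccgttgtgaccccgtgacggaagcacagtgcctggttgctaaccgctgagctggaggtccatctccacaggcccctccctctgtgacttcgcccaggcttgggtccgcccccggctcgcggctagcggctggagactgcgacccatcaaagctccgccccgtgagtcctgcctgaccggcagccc

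In Acot8 the match begins 22 bases before the start, and in Crat 223 bases before it. Acot8, a peroxisomal thioesterase, was at 6.81, 7.15 and 7.28 at 0.1 mg/kg and at 7.87, 8.35 and 8.53 at 1 mg/kg. The groups did not overlap, and the rise of 2.28-fold was an onset.

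The acyl-CoA thioesterases and the carnitine shuttle rose in large part in this step. Of 8 thioesterases 6 rose (75%) and 0 fell, beside 10.5% and 2.95% of all genes. Their median step was 1.14 (0.85 after quantile normalization), beside 0.20 and -0.01 over all genes. Acot1, Acot2, Acot7 and Acot8 were onset genes. Acot7 rose 2.15-fold, Acot9 2.25-fold and Acot12 1.67-fold. Acot7 and Acot8 rose again, by 1.18 and 0.93, from 1 to 10 mg/kg. Of 8 carnitine shuttle genes 7 rose (87.5%) and 0 fell, with a median step of 1.10 (0.91). Crat, Cpt1b, Cpt2 and Slc25a20 were onset genes.

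Cpt1a, the liver form of the enzyme that commits long-chain fatty acids to mitochondria, was at 7.80, 8.27 and 9.11 and then at 8.83, 9.32 and 9.80. The ranges overlapped slightly, and the rise was 1.91-fold (0.93, SE 0.15, adjusted p = 5.75e-06). Cpt1b, the muscle form, went from 1.96, 2.15 and 2.65 to 3.79, 4.76 and 5.86. It left the dimmest range in every rat, rising 6.14-fold, and rose by a further 3.75 from 1 to 10 mg/kg. As for Acot1, the starting level lies below the arrays' median probe set on average, so the size of this fold, and its comparison with the next step, depend on the background correction. Cpt2, the inner membrane partner, rose 2.11-fold, Slc25a20, the carnitine carrier of that membrane, 1.97-fold, Slc22a5, the carnitine importer of the cell, 2.40-fold and Crot, the peroxisomal octanoyltransferase, 2.17-fold.

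In mitochondrial beta-oxidation 12 of 18 genes rose (66.7%) and 1 fell (5.56%), beside 10.5% and 2.95% of all genes. The median step was 0.59 (0.36 after quantile normalization). Eci1, an isomerase that handles double bonds, was at 10.26, 10.87 and 11.16 and then at 12.20, 12.40 and 12.63. All 1 mg/kg arrays were above all 0.1 mg/kg arrays, with a 3.08-fold step, although Eci1 had risen by 0.79 before it. Hadha and Hadhb, the subunits of the trifunctional protein, rose 2.38-fold and 2.24-fold, Eci2 rose 1.79-fold and Acadvl, the dehydrogenase for very long chains, 1.65-fold. These 5 were the onset genes of the list. Acadsb, a dehydrogenase for short branched acyl groups, fell by 0.51 at a dim level of 3.38 to 2.87. At 0.1 mg/kg 4 of the 18 had risen, and 10 rose in the next step, from 1 to 10 mg/kg, in which 8.55% of all genes rose and 5.98% fell. That comparison shares the 1 mg/kg arrays with this one.

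Peroxisomal genes were split. Of 13 measured genes of peroxisomal beta-oxidation 5 rose (38.5%) and 0 fell, beside 10.5% and 2.95% of all genes. The rises were Ehhadh, Ech1, Abcd3, Hacl1 and Hsd17b4, and the median step was 0.27 (0.12). Ehhadh, the bifunctional enzyme, was at 9.59, 9.93 and 10.26 at 0.1 mg/kg and at 11.77, 12.13 and 12.29 at 1 mg/kg. The groups stood well apart, and the step of 4.46-fold (2.16, SE 0.08, adjusted p = 1.68e-23) exceeded the 0.51 at the lower dose. Ech1, a dienoyl-CoA isomerase, rose 3.69-fold after 0.71 at the lower dose, and Abcd3, a fatty acid transporter of the peroxisome membrane, 2.71-fold after -0.07. Hacl1, which shortens branched acids, and Hsd17b4, the second bifunctional enzyme, rose 1.74-fold and 1.53-fold without an onset. Of 14 peroxins 5 rose (35.7%, beside 10.5% of all genes) and 0 fell, and 0 were onset genes. Pex11a, which divides peroxisomes, rose 3.65-fold, from 6.42, 7.25 and 7.66 to 8.46, 8.94 and 9.44, after a rise of 0.85. Pex19 and Pex16, which act in membrane protein insertion, rose 2.36-fold and 1.41-fold, Pex6, an import ATPase, 1.80-fold and Pex11g 1.58-fold. A dimmer probe set of Pex16 gave a step of -0.08.

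Of 9 Cyp4 hydroxylases 2 rose (22.2%) and 0 fell, beside 10.5% and 2.95% of all genes. The median step was 0.02 (-0.16). Cyp4a1, which hydroxylates the end of fatty acids, was at 9.86, 10.48 and 10.95 at 0.1 mg/kg and at 12.29, 12.45 and 12.56 at 1 mg/kg. The higher group was also the tighter, with an SD of 0.10 against 0.35. The step was 4.11-fold (2.04, SE 0.10, adjusted p = 1.95e-19), after a rise of 0.90 from vehicle to 0.1 mg/kg, and the next step was 0.33. Cyp4a3 rose 1.97-fold.

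Genes that bring fatty acids into the cell and bind them moved less uniformly. Of 27 measured 9 rose (33.3%) and 0 fell, beside 10.5% and 2.95% of all genes. The median step was 0.46 (0.21), and Cd36, Fabp3, Acsl3 and Dbi were onset genes. Cd36, a fatty acid transporter, was at 4.51, 5.79 and 6.39 and then at 6.43, 7.28 and 7.98. The ranges just failed to touch on the deposited scale and overlapped after quantile normalization, with a 2.98-fold step. Fabp3, the heart form of the binding protein, went from 2.96, 3.62 and 4.13 to 4.06, 5.29 and 7.30. The 1 mg/kg rats ranged from the lower group's levels to far above them, with an SD of 1.00 against 0.38, and the mean rose 3.68-fold before a further 5.14 on the log2 scale in the next step. Fabp1, the liver form, rose 1.24-fold at a level of 12.57 to 12.88, Acsl3, an acyl-CoA synthetase, 2.56-fold and Dbi, the acyl-CoA binding protein, 1.58-fold.

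The lipid droplet list, which includes triglyceride turnover, had 26 measured genes. Of these 8 rose (30.8%) and 1 fell (3.85%), beside 10.5% and 2.95% of all genes, with a median step of 0.27 (0.06). Cidea, which enlarges droplets, was at 3.06, 4.60 and 5.45 and then at 5.92, 6.71 and 7.69. It was higher in all 1 mg/kg rats, 4.93-fold on average, as an onset gene. Mgll, monoglyceride lipase, rose 2.77-fold and Lipe, hormone-sensitive lipase, 1.98-fold, both with onset, although another Lipe probe set of like brightness gave 0.11, or -0.17 after quantile normalization. The droplet coat genes Plin5 and Plin2 rose 2.49-fold and 1.46-fold. Another Plin2 probe set gave 0.05, or -0.26 after quantile normalization. Plin1, the coat of fat cell droplets, fell by 0.46 at a level near the arrays' median probe set.

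Lipogenesis and desaturation had 20 measured genes, with 8 rises (40%) and 2 falls (10%), beside 10.5% and 2.95% of all genes. The median step was 0.52 (0.24). Me1, malic enzyme, which supplies NADPH, was at 7.04, 7.47 and 7.90 at 0.1 mg/kg and at 9.11, 9.26 and 9.52 at 1 mg/kg. All 1 mg/kg arrays were higher, by 3.50-fold on average. The desaturases Fads2 and Fads1 rose 2.60-fold and 1.83-fold, and Me1, Fads2 and Fads1 were the onset genes of the list. Elovl6, an elongase, rose 1.90-fold here with overlapping arrays and by 2.16 on the log2 scale in the next step, while a dimmer probe set gave 0.11 in this step, or -0.06 after quantile normalization. Thrsp, a thyroid hormone-responsive inducer of lipogenesis, and Pklr, liver pyruvate kinase, fell by 0.52 and 0.35. Other probe sets of Thrsp gave -0.19 and -0.49, and another of Pklr -0.48. The Thrsp call was lost with the probe set of largest variance and with the mean of all probe sets. Thrsp then rose by 0.88 from 1 to 10 mg/kg. Only 5 of the list rose when 0.1 mg/kg arrays 8 and 9 were left out, and 4 with only arrays 5 to 10 at 1 mg/kg.

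**Figure D3:**
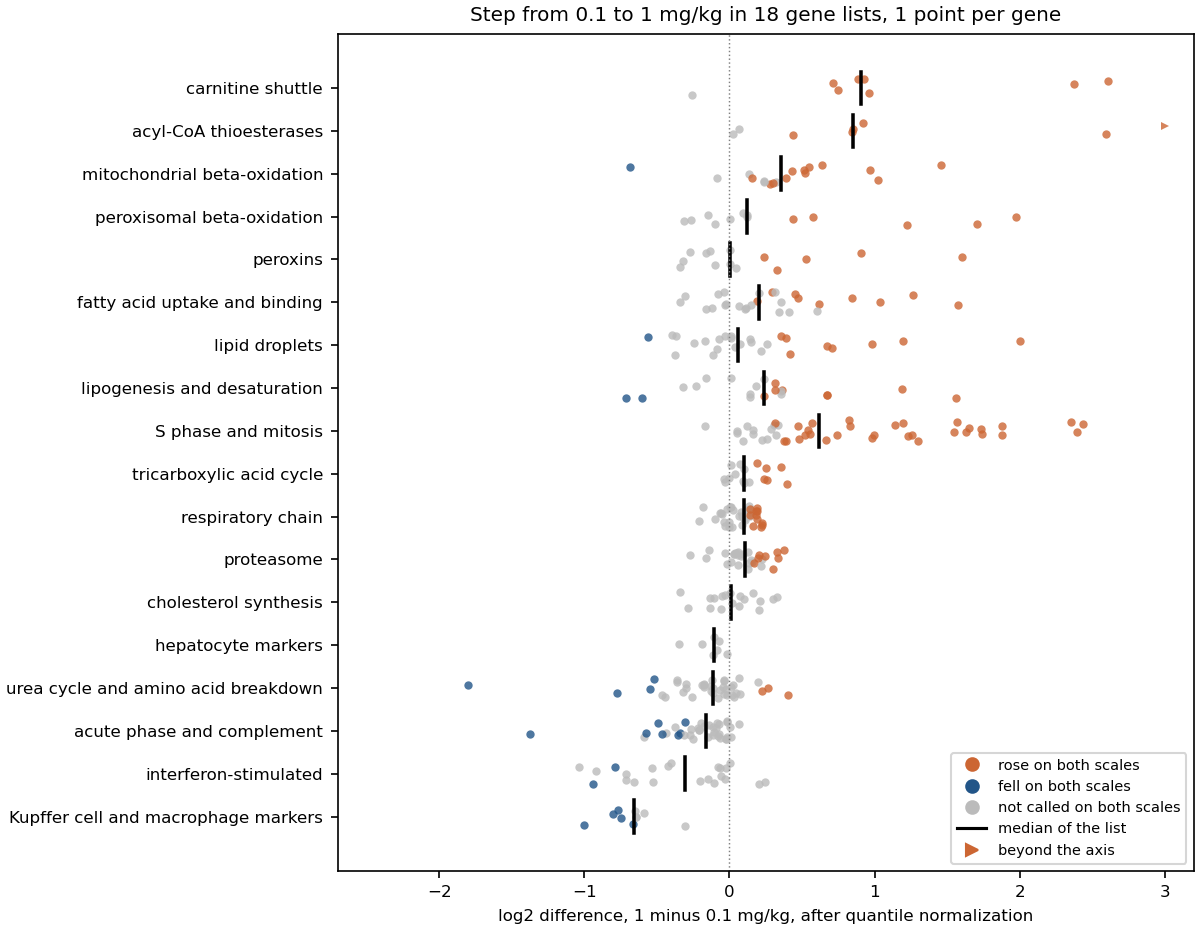
Log2 difference between 1 and 0.1 mg/kg after quantile normalization (horizontal axis) for each gene of 18 lists (vertical axis), with the list median as a bar. Colours mark genes that rose, fell or were not called on both scales. The medians of the carnitine shuttle (0.91), thioesterases (0.85) and S phase and mitosis (0.62) lie to the right, and that of the macrophage markers (-0.65) to the left.

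Among regulators and links to other fuels, Pdk4, which restrains pyruvate oxidation, rose with onset. It was at 7.40, 8.39 and 8.95 and then at 9.23, 9.91 and 10.69. No array overlapped, and the step was 3.09-fold after a change of -0.31 that did not pass. Mpc2, a subunit of the pyruvate carrier, rose 1.55-fold, and Slc37a4, the glucose 6-phosphate transporter, fell by 0.34. These were the calls in 23 pyruvate and glucose genes, of which 8.7% rose and 4.35% fell, beside 10.5% and 2.95% of all genes. Angptl4, an inhibitor of lipoprotein lipase, rose 2.58-fold, from 6.99, 8.35 and 9.40 to 9.09, 9.73 and 10.11. The lower group was the more variable, and the ranges overlapped. Of 6 ketone body genes 1 rose (16.7%, beside 10.5% of all genes), namely Acat1, the acetoacetyl-CoA thiolase (1.91-fold, with onset).

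Several genes of the same field did not pass on both scales. Ppara itself had a step of 0.23 (adjusted p = 0.0838) at a level of 2.11 to 2.34, below the arrays' median probe set. Fgf21, a hormone of fasting made by the liver, had 0.85 (adjusted p = 0.0148) on the deposited scale and 0.52 (adjusted p = 0.211) after quantile normalization. Ucp3, an uncoupling protein typical of muscle, had 0.10, or -0.02 after quantile normalization, at levels of 2.35 and 2.45 that lie below the arrays' median probe set, where a change may not be readable. It then rose by 2.68 from 1 to 10 mg/kg.

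In the dose course the step from 0.1 to 1 mg/kg and the next, from 1 to 10 mg/kg, multiply the dose equally. The deposited values shifted in the next step too, with a median probe set of 2.57 to 2.63 at 1 mg/kg and 2.70 to 2.73 at 10 mg/kg. Equal values were not compared between those 2 groups. A change of normalization run in either step would enter the comparison, and this was not tested. The difference of these steps was above 0 for 400 genes (2.98%) and below 0 for 278 (2.07%) on both scales. Of the 1406 rising genes 280 rose more in the first of the steps and 7 more in the second, and 330 rose again in the second while 57 fell back. The 1406 were chosen by their rise in the first step, which is part of this difference. The uneven split of 280 and 7 is therefore partly set by that choice. Acot1, Hdc, Crat, Ehhadh, Cyp4a1, Ech1 and Eci1 were among those that rose more between 0.1 and 1 mg/kg. Fabp3, Cpt1b and Elovl6 were among those that rose more between 1 and 10 mg/kg. This difference weights the 1 mg/kg arrays most, and its 678 calls became 217 with only arrays 1 to 4 of that group, 310 with only arrays 5 to 10 and 37 with the filter at log2 5.

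Cell division genes formed the largest group of onset genes among the lists. Of 44 genes of S phase and mitosis 31 rose (70.5%) and 0 fell, beside 10.5% and 2.95% of all genes. The median step was 0.78 (0.62 after quantile normalization), and 20 were onset genes. The list mean was 2.77 to 3.58 on the 0.1 mg/kg arrays, with a median of 3.15, and 3.82 to 4.76 on the 1 mg/kg arrays, with a median of 4.26. No array of either dose reached the other's range. The vehicle arrays ran from 2.78 to 3.86, so the list stood slightly lower at 0.1 mg/kg than in vehicle (median change -0.17, with 0 genes past the test). Of the 44 genes 31 were higher at 1 mg/kg than in vehicle, a comparison in which 11.1% of all genes rose. This count was taken apart from the 31 of the step. The median over the list was 0.65 (0.49 after quantile normalization). From 1 to 10 mg/kg 5 of the 44 rose, in a step where 8.55% of all genes rose.

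The largest rises were of genes that drive mitosis. Ccnb2, a B-type cyclin, was at 2.69, 3.88 and 4.61 at 0.1 mg/kg and at 5.56, 6.42 and 7.15 at 1 mg/kg. Every 1 mg/kg rat was higher, by 6.46-fold on average (2.69, SE 0.26, adjusted p = 1.42e-10). Ccnb1, the other B-type cyclin, rose 6.42-fold, from 2.37, 2.70 and 3.46 to 4.75, 5.68 and 6.29, and Cdc20, which activates the anaphase-promoting complex, 6.07-fold. Cdk1, the kinase that B-type cyclins activate, went from 3.13, 4.51 and 5.33 to 6.04, 6.53 and 7.37, a 4.54-fold step without overlap. Outside the list, Spc25, of the kinetochore, rose 4.92-fold and Cdkn3, a phosphatase that acts on cell cycle kinases, 4.49-fold. All 6 were onset genes, and for each the step was larger than the next one. Mki67, a marker of dividing cells, rose 1.53-fold at dim levels of 1.75 to 2.36.

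The list was not uniform. Among its 13 genes without a call on both scales were the replication helicase genes Mcm2, Mcm4, Mcm5 and Mcm6, the clamp gene Pcna and the E-type cyclins Ccne1 and Ccne2. Of the 31 that rose, 19 had both group means below log2 5. In 17 genes of G1 control and the p53 response 2 rose (11.8%) and 2 fell (11.8%), beside 10.5% and 2.95% of all genes. The share of rises was thus close to that of all genes. Cdkn1a, the p21 inhibitor, rose by 1.00 on the log2 scale and Cdkn2c, the p18 inhibitor, 1.87-fold, while Gadd45b and Aen, both induced by stress, fell by 0.43 and 0.35. Ccnd1, the G1 cyclin, had 0.55 (adjusted p = 0.0146) on the deposited scale and 0.25 (adjusted p = 0.352) after quantile normalization. The Cdkn1a call was lost in each of the subsets with arrays 8 and 9 of 0.1 mg/kg left out, only arrays 1 to 4, and only arrays 5 to 10 of 1 mg/kg.

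The promoters of the 25 rising cell cycle genes that had a RefSeq window were searched for 2 short motifs, chosen after the values were seen. At least 2 copies of CCAAT, on either strand, were in 17 of 25 (68%), beside 12.7% of genes tested and 11.5% of all promoters in the table. The motif TTTGAA, on either strand, was in 15 of 25 (60%), beside 12.3% and 18.1%, and both together were in 12 of 25 (48%), beside 1.64% and 2.14%. No share was taken for genes of the list that did not rise. These shares therefore describe genes of the list and cannot be tied to the step. CCAAT is the letter pattern read by the factor NF-Y, and TTTGAA is the core of the cell cycle homology region of mitotic genes. The promoters of Ccnb2 and Cdk1 are shown because each holds 3 copies of the first and 2 of the second, which are in capitals, with ATTGG as the reverse of CCAAT. The marked motifs do not overlap in these promoters.
Ccnb2 promoter, chr8:79981609-79981908 (- strand): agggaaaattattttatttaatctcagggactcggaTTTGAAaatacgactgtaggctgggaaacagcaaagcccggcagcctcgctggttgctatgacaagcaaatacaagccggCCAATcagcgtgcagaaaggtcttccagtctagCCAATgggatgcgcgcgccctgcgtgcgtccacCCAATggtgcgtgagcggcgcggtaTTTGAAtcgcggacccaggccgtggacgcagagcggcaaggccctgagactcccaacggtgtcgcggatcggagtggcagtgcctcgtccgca
Cdk1 promoter, chr20:19265043-19265342 (+ strand): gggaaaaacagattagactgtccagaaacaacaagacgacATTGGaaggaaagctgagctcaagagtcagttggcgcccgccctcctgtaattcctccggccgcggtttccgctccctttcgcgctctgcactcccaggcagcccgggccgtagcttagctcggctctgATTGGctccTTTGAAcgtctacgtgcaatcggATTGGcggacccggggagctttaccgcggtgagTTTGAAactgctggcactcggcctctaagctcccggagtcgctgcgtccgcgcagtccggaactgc

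**Figure D4:**
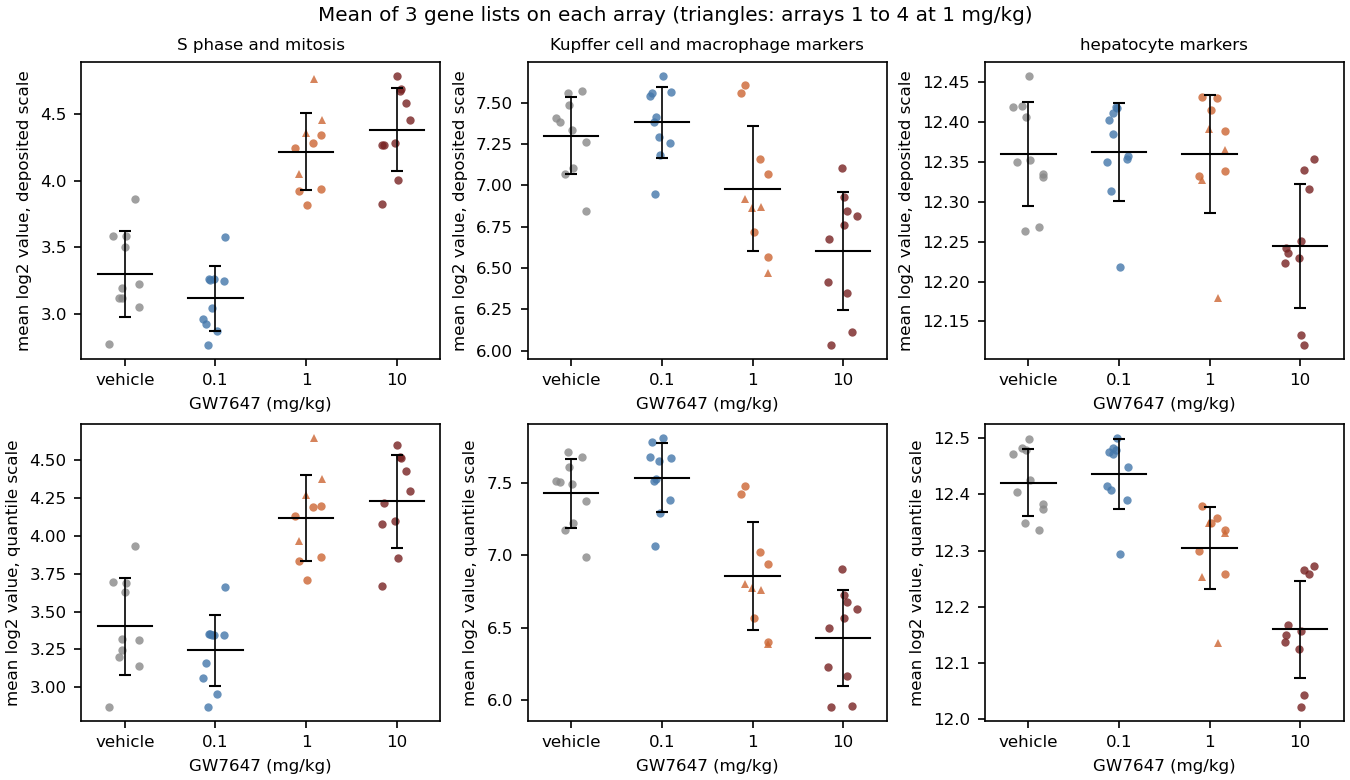
Mean log2 value of 3 gene lists on each array (vertical axes), on the deposited scale (top) and after quantile normalization (bottom), by GW7647 dose in mg/kg (horizontal axes), with the mean and SD of 10 arrays as lines and triangles for arrays 1 to 4 at 1 mg/kg. The S phase and mitosis list separates 0.1 from 1 mg/kg without overlap, the macrophage list shifts down with overlap, and the hepatocyte list averages 12.36 in both groups on the deposited scale.

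Genes of energy production and protein turnover rose in part and by small amounts. The tricarboxylic acid cycle had 16 measured genes, with 6 rises (37.5%) and 0 falls, beside 10.5% and 2.95% of all genes. The median step was 0.38 (0.10). Examples were Ogdh, of the 2-oxoglutarate dehydrogenase complex (1.54-fold), and Suclg1, a subunit of succinyl-CoA ligase (1.49-fold). In the respiratory chain 12 of 39 rose (30.8%) and 0 fell, with a median step of 0.30 (0.10). The 12 became 6 with only arrays 5 to 10 at 1 mg/kg. Of 30 proteasome genes 8 rose (26.7%) and 0 fell, with a median step of 0.33 (0.11). Psmd8, of the regulatory particle, was the onset gene (1.48-fold). From 1 to 10 mg/kg 21 of the 30 rose, in a step where 8.55% of all genes rose. Of 36 mitochondrial ribosomal proteins 4 rose (11.1%) and of 24 cytosolic ones 2 (8.33%), close to the 10.5% of all genes. Of 28 heat shock and chaperone genes 4 rose (14.3%) and 1 fell (3.57%), close to the 10.5% and 2.95% of all genes. The median step was 0.12 (-0.07), and 7 were lower after quantile normalization, beside 11.4% of all genes. Besides Hspb1, the rises were the mitochondrial chaperonins Hspd1 and Hspe1, both 1.47-fold, and Hsp90ab1, a cytosolic chaperone, 1.51-fold.

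Amino acid genes had calls in both directions. In 40 genes of the urea cycle and amino acid breakdown 3 rose (7.5%) and 4 fell (10%), beside 10.5% and 2.95% of all genes, and 11 were lower after quantile normalization. Acmsd, which diverts tryptophan breakdown away from NAD synthesis, was at 3.30, 4.42 and 4.75 at 0.1 mg/kg and at 2.20, 2.58 and 3.14 at 1 mg/kg. All 1 mg/kg arrays lay below all 0.1 mg/kg arrays, and the fall to 0.331 of the lower dose's level (SE 0.21 on the log2 scale, adjusted p = 1.03e-07) was an onset. Oat, Ass1 and Prodh, of ornithine, arginine and proline metabolism, fell by 0.57, 0.33 and 0.33, while Agxt, Sdsl and Bckdha rose 1.55-fold, 1.49-fold and 1.38-fold. Another Bckdha probe set gave -0.12, and another of Sdsl 0.37, or 0.03 after quantile normalization. Asns, asparagine synthetase, rose 2.29-fold with onset as 1 of 17 genes of the amino acid stress response (5.88%, beside 10.5% of all genes). Of 21 bile acid genes 3 rose (14.3%) and 0 fell, close to the share of all genes, namely Cyp8b1, the sterol 12-hydroxylase (1.65-fold), and the transporters Abcb4 (1.53-fold) and Abcc4 (by 0.68 on the log2 scale). Cyp7a1, whose enzyme sets the rate of bile acid synthesis, had a step of 0.70 (adjusted p = 0.0539).

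The largest fall was that of Apoa4, an apolipoprotein of triglyceride-rich particles. Its level was 9.79, 10.20 and 10.77 at 0.1 mg/kg and 6.91, 8.04 and 8.68 at 1 mg/kg. Every 1 mg/kg rat was lower, and the fall of 2.25 (SE 0.21, adjusted p = 8.99e-11) left 0.210 of the lower dose's level. It was an onset gene, with -0.43 at 0.1 mg/kg that did not pass, and it fell by a further 1.91 in the next step. Elapor1, an endosome and lysosome-associated protein, went from 5.28, 6.32 and 6.78 to 3.79, 4.88 and 5.32, a fall to 0.354 of the lower dose's level with a slight overlap. RT1-CE16, of the class I histocompatibility genes, fell by 1.33, from 4.24, 5.32 and 6.12 to 3.25, 3.75 and 5.14. Both were onset genes. Dio1, which activates thyroid hormone, fell by 0.89, Stac3, known from muscle excitation, by 0.79 and Tsc22d1, a transcription regulator, by 0.70.

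Genes of macrophages made up several of the other large falls. Of 10 markers of Kupffer cells and macrophages 5 fell and 0 rose, beside 2.95% of all genes that fell, with a median step of -0.39 (-0.65 after quantile normalization), and 9 of 10 were lower after quantile normalization. Clec4f, a lectin of rodent Kupffer cells, was at 9.95, 10.30 and 10.64 at 0.1 mg/kg and at 9.33, 9.66 and 10.28 at 1 mg/kg. Most 1 mg/kg rats lay below the whole 0.1 mg/kg range, and the fall was 0.58 (SE 0.12, adjusted p = 0.000205), with onset. C1qb and C1qc, complement components made by macrophages, fell by 0.72 and 0.53, Cd163, the scavenger receptor for haemoglobin, by 0.40 and Csf1r, the receptor for macrophage growth factor, by 0.38. Outside the list Ms4a6a (0.98), Ms4a6bl1 (0.91), Fcgr3a (0.91), Lcp1 (0.68) and Axl (0.64), which are expressed in macrophages or other leukocytes, fell by the log2 amounts given.

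The size of these falls differed within the 1 mg/kg group. The macrophage list mean was 6.95 to 7.66 at 0.1 mg/kg (median 7.40) and 6.47 to 7.60 at 1 mg/kg (median 6.89). It averaged 6.78 on arrays 1 to 4, where the poly-A controls read 5.25 to 5.70, and 7.11 on arrays 5 to 10, where they read 6.34 to 7.39. At 0.1 mg/kg these controls read 5.43 to 6.32. With arrays 1 to 4 alone 8 of the 10 markers fell, with arrays 5 to 10 alone 1 fell, and without 0.1 mg/kg arrays 8 and 9 there were 6. The part of this difference between arrays in the result was not tested.

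Acute phase and complement proteins of the liver fell in part. Of 38 genes 7 fell and 0 rose, beside 2.95% of all genes that fell, with a median step of -0.00 (-0.16), and 16 were lower after quantile normalization, beside 11.4%. A2m, alpha-2-macroglobulin, was at 5.25, 6.60 and 7.59 and then at 4.37, 5.54 and 6.56, with wide overlap and a fall of 1.02 (SE 0.31, adjusted p = 0.006). With only arrays 5 to 10 at 1 mg/kg 3 of the 38 fell. Of 22 interferon-stimulated genes 0 rose and 2 fell (9.09%), beside 10.5% and 2.95% of all genes. Irf7, a transcription factor of the interferon response, and Gbp2, an interferon-induced GTPase, fell by 0.66 and 0.55. The list median was -0.07 (-0.30). Against vehicle the list's median difference was 0.08 for the 1 mg/kg group and 0.12 for the 0.1 mg/kg group. On both scales 1 of the 22 was lower at 1 mg/kg than in vehicle, beside 3.37% of all genes. The list mean averaged 5.16 in vehicle, 5.35 at 0.1 mg/kg and 5.24 at 1 mg/kg. Irf7 averaged 5.70 on arrays 1 to 4 and 6.45 on arrays 5 to 10, and Gbp2 2.53 and 3.14. With arrays 1 to 4 alone 8 of the 22 fell, with arrays 5 to 10 alone 0 fell, and without 0.1 mg/kg arrays 8 and 9 there was 1. Tifa, an adaptor in signalling to NF-kappa B, fell by 0.82 (adjusted p = 0.0485), with 3.77 and 4.49 in the same order.

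Other groups showed few calls. In 18 cholesterol synthesis, 14 coagulation, 17 circadian clock and 21 immediate early genes 0 rose and 0 fell on both scales, with median steps of 0.29, 0.07, 0.13 and 0.19 (0.01, -0.09, -0.11 and -0.02 after quantile normalization). In the same groups the deposited scale alone called 7, 3, 7 and 5 genes higher, and quantile normalization alone called 0, 4, 1 and 3 lower. Markers of other cell types were mostly without a call. Of 7 hepatocyte, 11 stellate cell, 3 erythroid and 6 skeletal muscle markers 0 rose and 0 fell. Quantile normalization alone called 3 of the hepatocyte markers lower, and the deposited scale alone called 3 stellate cell markers and 1 skeletal muscle marker higher. Kdr, of 7 sinusoidal endothelial markers, fell by 0.22, while a dimmer probe set was higher at 1 mg/kg, by 0.12. Of 7 cholangiocyte markers Epcam rose 1.80-fold and Spp1 fell by 0.52. Cd79b, of 11 lymphocyte markers, fell by 0.30, and Camp, of 5 neutrophil markers, by 0.44, both at levels near the arrays' median probe set. Some small changes hung on single arrays. Of 20 refits that each left out 1 array, 13 lost the call of Cdkn1a, 13 that of Tifa, 13 that of Abcb4 and 11 that of Cd79b.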

How the data were processed

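Liver RNA of 40 rats was measured on 1 Affymetrix array each, and groups and doses were taken from the labels. The deposited values are log2 expression per probe set, made by the authors with GCRMA in Partek, per the submitters' processing notes, with versions not given in the sources used here. Arrays have no read depth, and precision is limited by how many there are. Of 31139 probe sets 97 controls were left out. Of the rest 19063 had 1 gene symbol, 572 several and 11407 none, and 18983 were matched to RefSeq (GRCr8, names and promoters). Each gene was read by its brightest probe set (mean of the 40 arrays), which left 13438 genes, 3985 of them with several probe sets.

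All 4 groups were fitted in 1 model with limma 3.58.1 in R 4.3.3 (lmFit and eBayes, 36 residual degrees of freedom, two-sided tests), on deposited values and after quantile normalization. The contrasts were the step from 0.1 to 1 mg/kg, the step minus the change from vehicle to 0.1 mg/kg, and the step minus the next step. The fit of a single scale was checked on simulated data with independent noise. Quantile normalization, the rule of both scales and shifts between arrays were not part of that check. Figures used Python 3.11.15 and matplotlib 3.10.9.

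Genes named are the 15 largest rises and 15 largest falls on both scales that reach a mean of log2 5 in either group, the 10 and 5 largest onset contrasts, the 5 largest positive and up to 5 largest negative differences from the next step (1 gene, Fabp3, qualified for the latter), up to 4 members of each list, and 31 genes whatever their values, of which 29 are analysed here. LOC and RGD symbols were skipped, and not every gene the rule allows is shown. Outside this rule 31 of the 129 genes given with values were chosen after their values were seen: Acadsb, Acadvl, Acot12, Acot7, Aen, Ass1, Bckdha, Cpt2, Csf1r, Dbi, Gadd45b, Gbp2, Hsd17b4, Pex16, Pklr, Prodh, Slc25a20, Slc37a4, Thrsp and the genes of the last section. The lists hold 915 genes in 43 groups, of which 778 were measured. Members and lists were chosen with earlier results of these data known.

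Alternatives were other scalings, a filter at log2 5, other choices of probe set, prior and array weights, a test against 1.2-fold, the replicate number as a block, poly-A controls as a covariate and subsets of arrays. Leaving out 0.1 mg/kg arrays 8 and 9, and using only arrays 5 to 10 of 1 mg/kg, were added after the data were seen.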

Additional observations from a re-analysis of the deposited data

Results flagged for a closer look

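In 14 of 258 gene and dose groups, 1 array of 10 lay far from the others on the deposited log2 scale by Dixon's criterion for the gap over the range, which chance gives in about 1 of 20 groups.

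At 1 mg/kg, array 9 was lowest for Crat at 7.63 (next 8.10) and for Plin2 at 10.6, array 3 for Crot at 10.6 (next 11.1), array 4 for Cd163 at 3.46 (next 4.07), array 10 for Kdr at 7.26 (next 7.56) and array 7 for Dut at 7.65 (next 8.01). Array 1 was highest for Pex11g at 5.26 (next 4.99) and array 2 for Camp at 2.51 (next 2.18). At 0.1 mg/kg, array 2 was highest for Cpt1b at 2.65 (next 2.30) and lowest for Cyp7a1 at 5.42 (next 6.69). Array 8 was lowest for Thrsp at 9.68 (next 10.4) and array 7 for Fabp1 at 12.4 (next 12.5). Array 5 was lowest for both Fcgr3a, at 4.54 (next 5.13), and Gbp2, at 2.44 (next 3.30).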

How the results depend on the processing

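The rises and falls of named genes mostly kept their direction and call, with 4353 of 4502 results unchanged, 131 no longer past the test, 13 newly past it and 5 reversed. The reversed steps were Bckdha at -0.12 and Kdr at 0.12 with the probe set of largest variance, and Ucp3 at -0.021 with quantile normalization, -0.036 with arrays shifted to 1 median and -0.035 with scaling to hybridisation controls. Of 124 called named genes 55 were lost in the test against 1.2-fold, 25 with only arrays 5 to 10 of 1 mg/kg and 16 with only arrays 1 to 4.

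The 6504 calls on the deposited scale became 2940 with quantile normalization, 4069 with arrays shifted to 1 median and 2111 with scaling to hybridisation controls. The filter at log2 5 or more, which tests fewer genes, gave 3589 deposited calls, 1236 quantile calls, 630 rises, 95 falls, 99 differences from the step before, 37 from the next step, 87 rising and 12 falling onset genes. The test against 1.2-fold gave 1137, 278, 190 and 24 for the first 4 of these. With only arrays 1 to 4 of 1 mg/kg they were 4274, 1740, 871 and 251, and 217 genes differed from the next step. With only arrays 5 to 10 of 1 mg/kg 310 did, and 156 were rising onset genes. Without 0.1 mg/kg arrays 8 and 9, 206 genes differed from the step before and 147 were rising onset genes. The cause of these shifts was not tested.

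Leaving out each array in turn gave 5874 to 6475 deposited calls, 2628 to 3001 quantile calls, 1266 to 1451 rises and 342 to 435 falls. It gave 202 (without 0.1 mg/kg array 9) to 387 differences from the step before, 518 to 693 from the next, 144 (again without 0.1 mg/kg array 9) to 283 rising and 55 to 101 falling onset genes. The replicate number as a block gave 6559 deposited and 3033 quantile calls, 1452 rises, 392 falls, 364 differences from the step before and 691 from the next, and lost the calls of Abcb4 and Cd79b. Same-numbered arrays deviated with correlations of -0.214 to 0.285, with 3 of 10 above 0.1 and 3 of 10 best with their own number, so the numbers are not taken as pairs. At least 1 of the 20 refits without an array lost the call of 15 named genes. Besides Cdkn1a, Tifa, Abcb4 and Cd79b these were Cyp8b1 (8 refits), Prodh and Sdsl (7 each), Elovl6 (5), Aen and Pklr (3 each), Pex16, Irf7 and Thrsp (2 each) and Oat and Abcc4 (1 each).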

Other observations

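Other onset genes outside the lists, chosen after their values were seen, touch coenzyme A turnover, cell division and functions outside both. Pank1, pantothenate kinase, which starts coenzyme A synthesis, was at 7.56, 7.66 and 7.90 (lowest, median and highest of 10 arrays) at 0.1 mg/kg and at 8.54, 8.76 and 9.17 at 1 mg/kg. No arrays overlapped, and the rise was 2.14-fold (limma, adjusted p = 3.09e-11). Nudt7, a peroxisomal hydrolase that breaks coenzyme A down, rose 2.33-fold, from 6.72, 7.23 and 7.83 to 8.06, 8.29 and 9.11, also without overlap on the deposited scale. Creb3l3, a liver transcription factor of fasting and lipid genes, rose 1.90-fold. Hsdl2, a peroxisomal dehydrogenase-like protein, rose 3.40-fold.

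Among genes of cell division, Pttg1, the securin, went from 3.43, 3.90 and 4.40 to 4.77, 6.08 and 6.49. All 1 mg/kg arrays were higher, by 4.21-fold on average. Spc24 and Zwint, of the kinetochore, rose 3.37-fold and 1.72-fold, and Dut, which keeps uracil out of DNA, 1.84-fold. Enc1, an actin-binding protein, Rab30, a Golgi GTPase, and Tor3a, a torsin ATPase, rose 4.14-fold, 4.11-fold and 4.38-fold, and Impa2, an inositol phosphatase, 3.42-fold. Dimmer probe sets of Enc1 gave log2 steps of 1.12 and -0.11, and 1 of Rab30 gave 1.37.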
